A study of Mus musculus with 6 samples.

Results

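The 38 genes described here are listed members of the 4 mouse Hox clusters, 10 from Hoxa, 10 from Hoxb, 9 from Hoxc and 9 from Hoxd, chosen by name from the 55471 genes in the deposited expression table. Hox genes encode homeodomain transcription factors that give cells their position along the body and limb axes. Within a cluster they lie in the order in which they act from head to tail, and genes at the same place in different clusters form a paralog group, numbered from 1 at the anterior end to 13 at the posterior end. In the limb, the posterior groups pattern successively more distal bones, and stromal cells of the adult skeleton are known to keep part of this positional expression. The Bap1 protein takes ubiquitin off histone H2A, a mark placed by Polycomb complexes, which are the classical repressors of Hox genes.

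Polyadenylated RNA of endosteal mesenchymal stromal cells, the stromal cells of the inner bone surface, was sequenced from C57BL/6J mice. The WT group holds 3 libraries with the floxed allele and no Cre named (Bap1fl/fl), and the cKO group holds 3 libraries that carry the same floxed allele together with Prx1-cre (Prx1-cre;Bap1fl/fl), so that both groups share the Bap1fl/fl background. The Prx1 promoter drives Cre in limb bud mesenchyme and the cells that descend from it. Ages are not part of the labels, and neither is a statement that the libraries of a group are separate animals, so the p-values reflect the spread between these 6 samples alone, which may be technical.

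Depth was estimated at 13.2 to 14.9 megafragments (M) in the WT libraries and 13.04 to 22.3 M in the cKO libraries, and 17664 to 18925 genes had a value above 0. Expression is in RPKM (reads per kilobase of transcript, scaled to library size). Bap1 had 22.8, 22.72 and 24.01 RPKM in WT replicates 1 to 3 against 28.27, 25.16 and 22.99 RPKM in cKO replicates 1 to 3 (limma log2 difference 0.13, Benjamini-Hochberg adjusted p = 0.29). A gene-wide value counts shortened and intact transcripts alike, so it does not check the labels. Of 13 mesenchymal stromal markers 12 were tested, of which 9 were lower and 1 higher in the cKO libraries. Among all genes tested 26.5% were lower and 34.7% higher. Thy1 and Eng met the minimum mean for testing, given below, through the WT libraries alone. The 13 markers had a summed level of 8187 to 8698 RPKM in WT and 728 to 1535 RPKM in cKO libraries, most of it Vim. Lepr, a marker of perisinusoidal stroma, was at or under 0.14 RPKM throughout. The summed level of 9 kidney tubule markers was 0.21 to 0.28 RPKM in the WT and 125.7 to 246.9 RPKM in the cKO libraries, mostly Pax8 in the cKO libraries, while Umod and Calb1 were at 0 in every library. The summed level of 8 epithelial markers was 12.6 to 14.9 RPKM in the WT and 1.96 to 6.01 RPKM in the cKO libraries, with Cldn3 and Cldn4 at 0 throughout. Most of it was Krt19, at 11.73 to 13.73 RPKM in WT and 1.67 to 5.79 RPKM in cKO libraries. Krt8 was at 0.66 to 0.79 RPKM in WT and 0 in cKO libraries. Epcam went the other way, at 0 in WT and 0.17 to 0.29 RPKM in cKO libraries. For 6 osteoblast markers the sum was 390.5 to 455.2 RPKM in WT and 18.5 to 42.6 RPKM in cKO libraries, most of it Spp1. All 3 osteoblast markers that were tested were lower, beside 26.5% of all genes tested. Alpl, 1 of the 3, met the minimum through the WT libraries alone. For 3 chondrocyte markers the sum was 73.5 to 81.7 RPKM in WT and 23.6 to 99.6 RPKM in cKO libraries, most of it Col2a1. Sox9 in that list was higher without overlap (log2 difference 1.88, limma adjusted p = 0.00212). Its values were 1.02, 1.2 and 1 RPKM in WT and 4.31, 11.47 and 5.67 RPKM in cKO libraries. Haematopoietic and endothelial lists summed to at most 0.65 RPKM each, and 4 skeletal muscle markers were at 0. The sum of 4 smooth muscle markers was 2155 to 2420 RPKM in WT and 119.5 to 2611 RPKM in cKO libraries. Library cKO replicate 3 stood apart in the smooth muscle actin Acta2, at 1532.34 RPKM against 68.78 and 149.26 in cKO replicates 1 and 2. The stromal, osteoblast, kidney tubule and epithelial sums did not overlap between the groups, the chondrocyte and smooth muscle sums did, and the part of these cell types in the Hox results below was not tested. In bulk RNA, fewer cells of a type and less RNA per cell cannot be told apart.

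Hox expression was rearranged between the groups while the ranges of its summed level overlapped. The level of all 38 genes summed to 205.2, 222.0 and 219.2 RPKM in WT replicates 1 to 3 and to 230.7, 193.6 and 157.6 RPKM in cKO replicates 1 to 3, with cKO replicate 1 above and the other cKO libraries below every WT library. A gene was tested if its mean over the 6 libraries was 1 RPKM or more. Of 21 Hox genes that met this minimum, 5 were higher and 11 lower in the cKO libraries (limma on log2(RPKM + 1), Benjamini-Hochberg adjusted p under 0.05). Of all 12223 genes tested 34.7% were higher and 26.5% lower, 61.2% in all, against 76.2% of the Hox genes tested. The median log2 difference of the tested Hox genes was −0.71, and that of all genes tested was 0.09. That count and median are partly set by the minimum, because 9 of the tested Hox genes (7 of Hoxb and 2 of Hoxc) reached it through the WT libraries alone and had to differ. Among the 12 Hox genes whose mean was 1 RPKM or more in each group, 5 were higher, 2 lower and 5 neither. The cKO values lay entirely above the WT values in 5 tested Hox genes and entirely below them in 11, where 39.2% and 29.8% of all genes tested did so, 69.0% in all. Of the 17 members not tested, 11 were at 0 in every library.

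**Figure D1:**
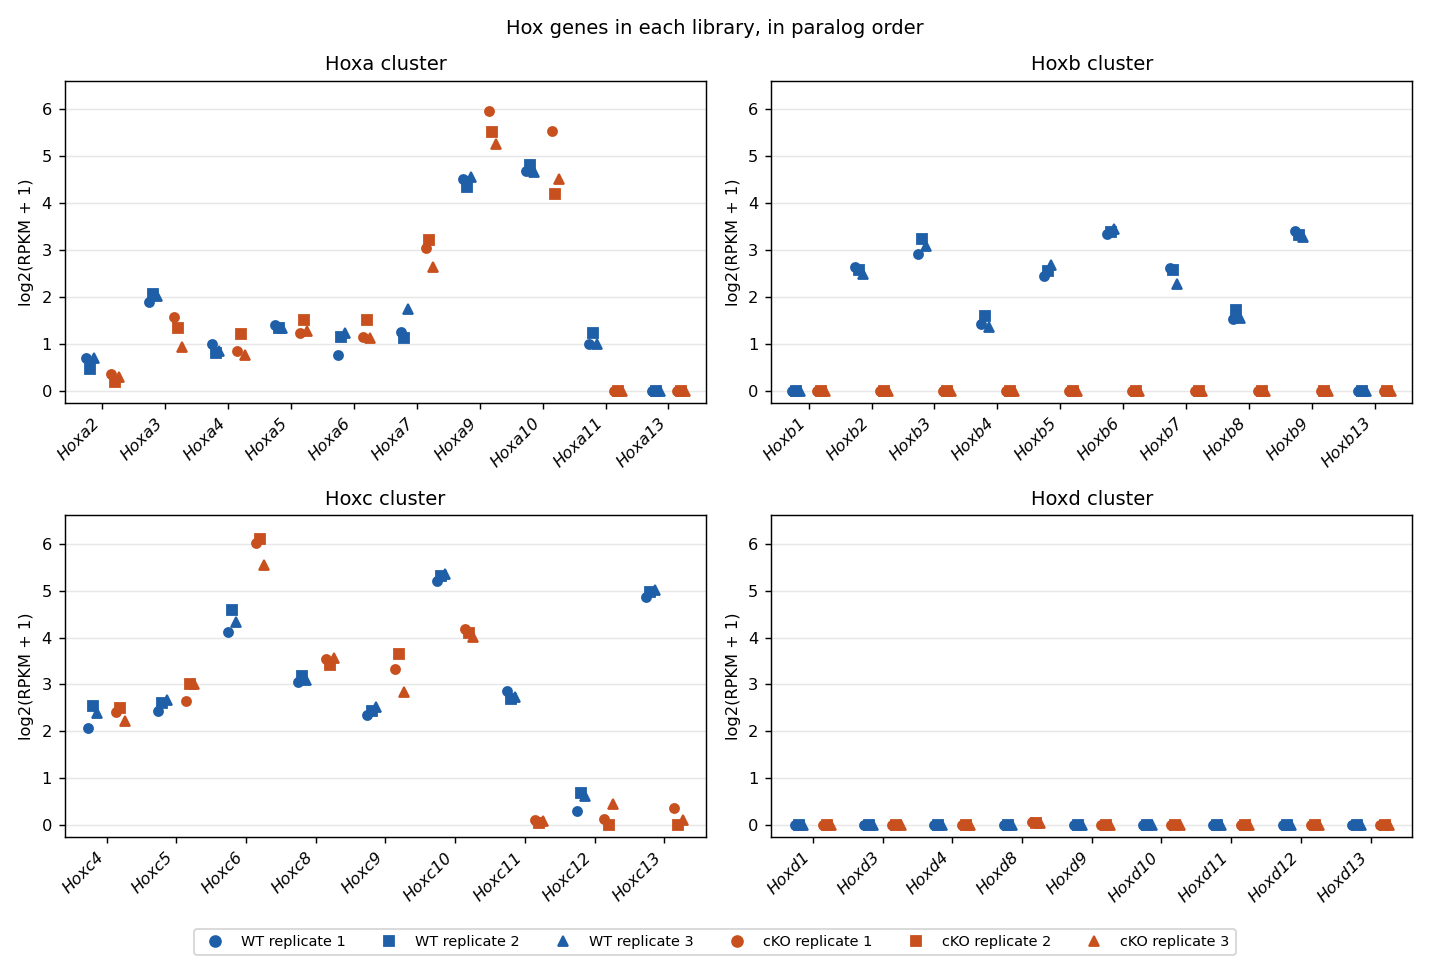
Level of each Hox gene as log2(RPKM + 1), with 1 point per library, WT in blue and cKO in orange, and genes in paralog order within each cluster. Hoxb2 to Hoxb9 lie above 0 only in WT libraries, Hoxa7, Hoxa9 and Hoxc6 lie higher in cKO libraries, Hoxc10, Hoxc11 and Hoxc13 lie lower there, and the Hoxd panel is at or near 0.

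The promoters of 4 genes are shown as examples of the 2 opposite patterns, Hoxb4 and Hoxb8 at 0 in the cKO libraries and Hoxa7 and Hoxa9 with higher expression there. From Hoxb2 to Hoxb9 only Hoxb4 and Hoxb8 had a promoter sequence available. They had the lowest WT means of that block, 1.75 and 2.03 RPKM, and do not stand for it. Each is the RefSeq window of 300 bases, from 250 before to 50 after the annotated start, read 5′ to 3′ on the gene's strand, with CG dinucleotides in capitals (GRCm38.p6). The windows are chr11:96318017-96318316 on the plus strand for Hoxb4, chr11:96281655-96281954 on the plus strand for Hoxb8, chr6:52218524-52218823 on the minus strand for Hoxa7 and chr6:52227321-52227620 on the minus strand for Hoxa9. Those of Hoxb4 and Hoxb8 span the outermost gene start (96318267 and 96281905). Those of Hoxa7 and Hoxa9 lie inside genes that begin at 52221854 and 52231089. The 2 pairs are thus different kinds of start, and their CG counts and motifs are not compared like for like.
Hoxb4: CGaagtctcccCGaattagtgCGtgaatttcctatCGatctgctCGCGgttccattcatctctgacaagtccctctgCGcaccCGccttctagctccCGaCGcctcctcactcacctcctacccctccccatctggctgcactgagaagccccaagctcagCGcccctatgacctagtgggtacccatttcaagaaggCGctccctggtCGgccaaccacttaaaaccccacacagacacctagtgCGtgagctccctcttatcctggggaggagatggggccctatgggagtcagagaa
Hoxb8: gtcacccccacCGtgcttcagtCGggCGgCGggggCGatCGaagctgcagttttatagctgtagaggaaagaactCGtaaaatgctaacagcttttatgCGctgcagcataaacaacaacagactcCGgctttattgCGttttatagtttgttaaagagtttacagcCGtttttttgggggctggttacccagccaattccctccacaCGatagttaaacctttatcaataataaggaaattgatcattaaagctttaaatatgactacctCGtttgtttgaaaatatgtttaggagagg
Hoxa7: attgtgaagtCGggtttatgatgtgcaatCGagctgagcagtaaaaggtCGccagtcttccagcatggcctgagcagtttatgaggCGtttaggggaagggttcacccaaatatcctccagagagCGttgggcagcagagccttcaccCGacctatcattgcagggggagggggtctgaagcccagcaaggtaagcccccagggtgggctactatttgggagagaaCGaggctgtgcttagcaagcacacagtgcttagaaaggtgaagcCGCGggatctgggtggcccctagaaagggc
Hoxa9: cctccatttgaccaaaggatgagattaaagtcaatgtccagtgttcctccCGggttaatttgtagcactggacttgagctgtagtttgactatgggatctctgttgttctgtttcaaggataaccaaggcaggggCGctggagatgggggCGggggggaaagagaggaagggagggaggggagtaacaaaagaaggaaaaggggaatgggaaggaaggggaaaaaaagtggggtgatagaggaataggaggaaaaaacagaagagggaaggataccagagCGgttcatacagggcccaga
These windows hold 14, 13, 9 and 4 CG dinucleotides in the order given. Windows were found for 22 of the 38 Hox genes (24 windows), with a median of 14.5 CG dinucleotides against 7 over all 32851 promoter windows. Most were of Hoxa and Hoxd genes, while Hoxc4 was the only Hoxc gene and Hoxb1, Hoxb4 and Hoxb8 the only Hoxb genes. The Hoxd genes were at or near 0 in both groups, so shares over these windows do not describe the genes that differed. Searched on both strands, the TATA box motif TATAAA was found in 16.7% of the Hox windows and 13.6% of all windows. The AT-rich motif TTTATNG was found in 8.33% of the Hox windows against 10.9% of all, and TGATNNAT, the core of a joint Hox and Pbx site, in 16.7% against 8.85%. The nuclear receptor element AGGTCA was found in 29.2% of the Hox windows against 16.3% of all, and CCAAT in 62.5% against 37.4%. Of the 4 windows printed, Hoxb8 held every motif except AGGTCA, Hoxb4 held only AGGTCA, and Hoxa7 and Hoxa9 held none of the 5 motifs. The letters of the TATA box and AT-rich motifs can overlap, and a match is a description of the window only.

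Hoxb genes were present in the WT libraries and had the value 0 in the cKO libraries. The cluster spans 96194316 to 96368256 of chromosome 11 (GRCm38), and its 8 consecutive genes from Hoxb2 to Hoxb9 all followed this pattern, while Hoxb1 at the anterior end and Hoxb13 at the posterior end were at 0 in every library. Summed over the cluster, the level was 43.7, 45.9 and 43.4 RPKM in the WT libraries and 0 in each cKO library. Hoxb thus made up 19.8 to 21.3% of the summed Hox level in WT libraries and none in cKO libraries.

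The anterior Hoxb genes act in the hindbrain and neck region. Hoxb2, which helps pattern hindbrain segments, had 5.21, 4.95 and 4.61 RPKM in WT replicates 1 to 3 (log2 difference −2.57 ± 0.13 SE, limma Benjamini-Hochberg adjusted p = 1.75e-05, n = 3 libraries per group here and below). Hoxb3 stood at 6.58, 8.39 and 7.52 RPKM in the same libraries (−3.08 ± 0.14, limma adjusted p = 1.1e-05). Hoxb4, known for expanding blood stem cells when overexpressed, stood at 1.67, 2.03 and 1.55 RPKM and lay under the minimum for testing. With a minimum mean of 0.1 RPKM it passed (−1.46 ± 0.11, limma adjusted p = 0.000103). Hoxb2, Hoxb3 and Hoxb4 each met the minimum they were tested at through the WT libraries alone and had to differ. Their p-values therefore add no support. All WT values of these genes lay above their cKO values, which were 0.

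The middle and posterior Hoxb genes act in the trunk and showed the same split. Hoxb5 had 4.49, 4.91 and 5.37 RPKM in WT libraries (−2.56 ± 0.13, limma adjusted p = 2.05e-05). Hoxb6 had 9.1, 9.39 and 9.94 RPKM there (−3.39 ± 0.12, limma adjusted p = 3.95e-06). It was the highest Hoxb gene by its mean, although its values overlapped those of Hoxb9. Hoxb7 had 5.1, 4.99 and 3.81 RPKM (−2.49 ± 0.15, limma adjusted p = 3.82e-05), and Hoxb8 had 1.87, 2.29 and 1.94 RPKM (−1.60 ± 0.15, limma adjusted p = 0.000176). Hoxb9, which acts in thoracic patterning, reached 9.67, 8.97 and 8.64 RPKM (−3.33 ± 0.12, limma adjusted p = 4.66e-06). WT libraries differed little from each other, by at most 1.81 RPKM in any gene of this block. Hoxb5 to Hoxb9 likewise met the minimum through the WT libraries alone and had to differ, so their p-values add no support. The differences on the log2 scale depend on the pseudocount of 1 and are no measure of fold, since no fold can be given against 0.

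The depth allows a bound on what the zeros can hide. By the estimated depth, the WT values correspond to 27 to 30 fragments for Hoxb8, the gene with the fewest, and to 268 to 321 fragments for Hoxb9. A listed 0 is a count of 0, and 3 fragments were taken as the upper limit on the expected count behind it, which is not absolute. That limit would be 0.0593 to 0.101 RPKM for Hoxb9 in the cKO libraries and 0.136 to 0.232 RPKM for Hoxb8. These bounds cover counting error only. In the whole table, 81 of 11215 genes with at least 1 RPKM in every WT library were at 0 in every cKO library, 0.722%. Among Hox genes it was 8 of 21, or 38.1%, all of them Hoxb genes.

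**Figure D2:**
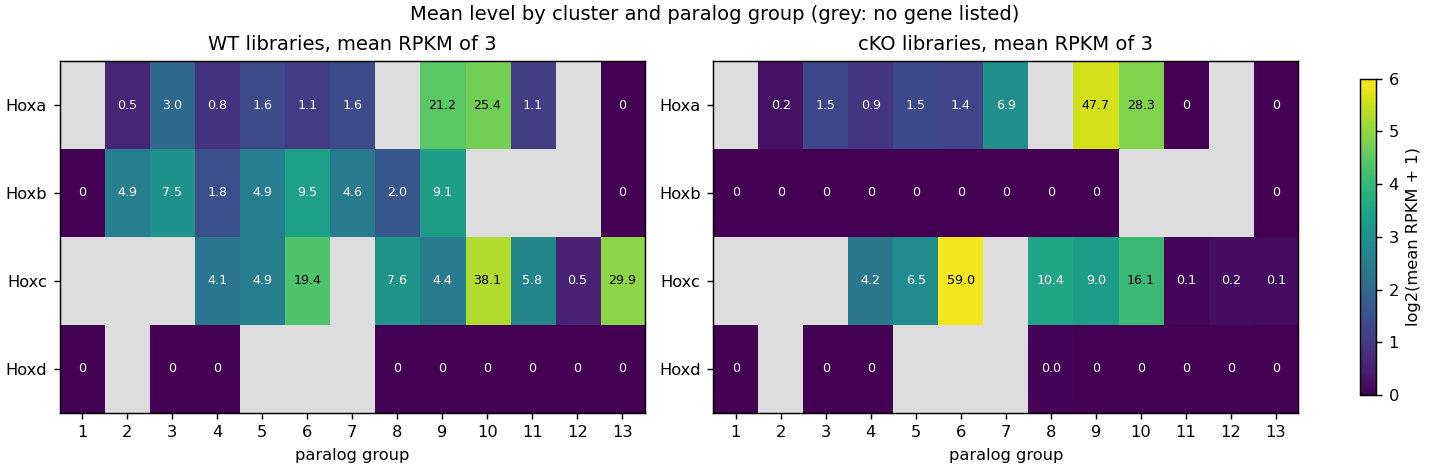
Mean RPKM of 3 libraries for each Hox gene, clusters in rows and paralog groups in columns, WT on the left and cKO on the right, with colour as log2(mean RPKM + 1) and grey where no listed gene exists. The Hoxb row stands at 1.8 to 9.5 RPKM in groups 2 to 9 in WT and at 0 in cKO libraries, and the highest cell moves from Hoxc10 in WT to Hoxc6 in cKO libraries.

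Hoxc genes changed in opposite directions along the cluster, higher at Hoxc6, Hoxc8 and Hoxc9 and lower at Hoxc10, Hoxc11 and Hoxc13, while Hoxc12 overlapped. The cluster lies on chromosome 15 (102921103 to 103036852). Its summed level was 105.8, 120.2 and 118.3 RPKM in WT and 111.1, 116.4 and 88.9 RPKM in cKO libraries, ranges that overlapped. Within it, the sum of Hoxc4 to Hoxc9 was 35.4, 45.3 and 40.8 RPKM in WT and 93.5, 100.4 and 73.3 RPKM in cKO libraries, 2.20-fold higher. The sum of Hoxc10 to Hoxc13 was 70.5, 75.0 and 77.5 RPKM in WT and 17.63, 16.03 and 15.67 RPKM in cKO libraries, 4.52-fold lower. Neither pair of ranges overlapped, and sums over members carry no test.

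Hoxc4 and Hoxc5, the anterior genes of the cluster, act in the neck and forelimb region and did not pass. Hoxc4 was at 3.19, 4.81 and 4.23 RPKM in WT and 4.31, 4.66 and 3.66 RPKM in cKO libraries (0.05 ± 0.16, limma adjusted p = 0.821). Hoxc5 was at 4.38, 5.08 and 5.35 RPKM in WT and 5.3, 7.11 and 7.09 RPKM in cKO libraries (0.33 ± 0.14, limma adjusted p = 0.0847). The values of both genes overlapped between groups, and Hoxc5 passed without cKO replicate 1 (0.45, limma adjusted p = 0.0253) and with each chromosome centred on its median (0.49, limma adjusted p = 0.0248).

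Hoxc6, Hoxc8 and Hoxc9 act in thoracic patterning, and all 3 were higher in cKO libraries. Hoxc6 had 16.38, 22.97 and 18.99 RPKM in WT and 64.07, 67.36 and 45.6 RPKM in cKO libraries, 3.03-fold higher (1.55 ± 0.18, limma adjusted p = 0.000516). Every cKO value lay at least 22 RPKM above the highest WT value. Hoxc8 had 7.28, 8 and 7.52 RPKM in WT and 10.66, 9.65 and 10.75 RPKM in cKO libraries, 1.36-fold higher (0.40 ± 0.09, limma adjusted p = 0.00983). Hoxc9 had 4.12, 4.43 and 4.72 RPKM in WT and 9.11, 11.58 and 6.17 RPKM in cKO libraries, 2.02-fold higher (0.84 ± 0.21, limma adjusted p = 0.0121). In these genes the groups did not overlap, although cKO replicate 3 was the lowest cKO library for Hoxc6 and Hoxc9.

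The posterior Hoxc genes act in the lumbar to tail region and the hindlimb, and 3 of the 4 were lower. Hoxc10 was the highest Hox gene of the WT libraries, at 35.84, 38.64 and 39.95 RPKM, and stood at 17.17, 15.99 and 15.15 RPKM in cKO libraries, 2.37-fold lower (−1.19 ± 0.09, limma adjusted p = 6.85e-05). Hoxc11 was at 6.3, 5.42 and 5.68 RPKM in WT and at 0.08, 0.04 and 0.07 RPKM in cKO libraries (−2.68 ± 0.13, limma adjusted p = 1.47e-05). The cKO values of Hoxc11 correspond to 1 to 3 fragments, so no fold is given. Hoxc13, known for its role in hair and nail, was at 28.09, 30.27 and 31.33 RPKM in WT and at 0.29, 0 and 0.08 RPKM in cKO libraries (−4.79 ± 0.13, limma adjusted p = 1.8e-06), the largest difference among the Hox genes tested. Hoxc11 and Hoxc13 met the minimum through the WT libraries alone and had to differ, so their p-values add no support. Hoxc12 was under the minimum, at 0.24, 0.62 and 0.55 RPKM in WT and 0.09, 0 and 0.37 RPKM in cKO libraries, and overlapped. Hoxc10 shares 8.70% of its exon bases with Hoxc5 on the same strand, so a part of their reads cannot be told apart. Hoxc5 did not pass, and the values of both genes are given as deposited.

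Hoxa genes showed no common direction, with Hoxa7 and Hoxa9 higher, Hoxa3 lower and Hoxa11 at 0 in the cKO libraries. The listed genes lie on chromosome 6 between 52162417 and 52260880. Their summed level was 55.7, 55.9 and 57.5 RPKM in WT and 119.5, 77.1 and 68.7 RPKM in cKO libraries, 1.57-fold higher without overlap, and it made up 25.2 to 27.1% of the summed Hox level in WT and 39.9 to 51.8% in cKO libraries. The cKO libraries were much less alike than the WT libraries, with an SD of 27.3 against 1.03 RPKM, and cKO replicate 1 was the highest.

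The anterior Hoxa genes were low. Hoxa2, which patterns the second pharyngeal arch, was under the minimum at 0.39 to 0.62 RPKM in WT and 0.14 to 0.28 RPKM in cKO libraries, without overlap. With a minimum mean of 0.1 RPKM it passed as lower (−0.35 ± 0.11, limma adjusted p = 0.0347). Hoxa3, needed for thymus and parathyroid formation, was at 2.74, 3.15 and 3.08 RPKM in WT and 1.99, 1.52 and 0.92 RPKM in cKO libraries, 2.02-fold lower without overlap (−0.71 ± 0.19, limma adjusted p = 0.0159). Hoxa3 did not pass on leaving out WT replicate 2 (limma adjusted p = 0.056) or WT replicate 3 (0.0552) and with each chromosome centred (0.106). The exons of Hoxa2 and Hoxa3 share 15.04% and 8.02% of their bases with the predicted gene Gm28308. Hoxa4, at 1, 0.74 and 0.79 RPKM in WT and 0.79, 1.31 and 0.71 RPKM in cKO libraries, was not tested, and its groups overlapped.

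The middle Hoxa genes pattern the lower neck and thorax. Hoxa5 was at 1.65, 1.53 and 1.54 RPKM in WT and 1.36, 1.84 and 1.42 RPKM in cKO libraries (−0.02 ± 0.14, limma adjusted p = 0.895). Hoxa6 was at 0.69, 1.21 and 1.36 RPKM in WT and 1.22, 1.84 and 1.17 RPKM in cKO libraries (0.21 ± 0.20, limma adjusted p = 0.386). The groups overlapped in both genes. Hoxa7 was at 1.38, 1.18 and 2.33 RPKM in WT and 7.28, 8.23 and 5.25 RPKM in cKO libraries, 4.25-fold higher without overlap (1.60 ± 0.22, limma adjusted p = 0.001). Its immediate neighbour Hoxa6 was thus within its spread where Hoxa7 passed, and the difference between these 2 genes was not tested.

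Hoxa9 and Hoxa10, the highest Hoxa genes, differed in their behaviour. Hoxa9, known for its role in blood progenitors and leukaemia, had 21.75, 19.37 and 22.5 RPKM in WT and 60.92, 44.91 and 37.19 RPKM in cKO libraries, 2.25-fold higher (1.11 ± 0.18, limma adjusted p = 0.00195). All cKO values lay above all WT values. Hoxa10, a gene of the proximal limb and the uterus, had 24.83, 26.92 and 24.32 RPKM in WT and 45.7, 17.33 and 21.77 RPKM in cKO libraries and did not pass (0.03 ± 0.33, limma adjusted p = 0.941). Here cKO replicate 1 lay above and cKO replicates 2 and 3 below every WT library, and without cKO replicate 1 the difference was −0.37 (limma adjusted p = 0.0489).

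The posterior end of Hoxa patterns the middle and distal limb. Hoxa11, a gene of the forearm and shank, was at 1.01, 1.36 and 0.99 RPKM in WT libraries and at 0 in each cKO library. It lay under the minimum for testing and passed with a minimum mean of 0.1 RPKM (−1.08 ± 0.11, limma adjusted p = 0.00031). Hoxa11 met that minimum through the WT libraries alone and had to differ, so its p-value adds no support. Its WT values correspond to 30 to 37 fragments, and the limit of 3 fragments would be 0.0659 to 0.113 RPKM in the cKO libraries. Hoxa13, the gene of the hand and foot, was at 0 in every library.

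Hoxd genes, whose posterior members are central to limb patterning, were close to absent in both groups. On chromosome 2 (74668310 to 74765142), 8 of the 9 genes were at 0 in all 6 libraries. Hoxd8 was at 0 in WT and at 0.05, 0.04 and 0.03 RPKM in cKO libraries, which is 1 fragment each and under the bound of 3 fragments, so no difference was detectable at this depth. None of the Hoxd genes reached the minimum for testing.

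**Figure D3:**
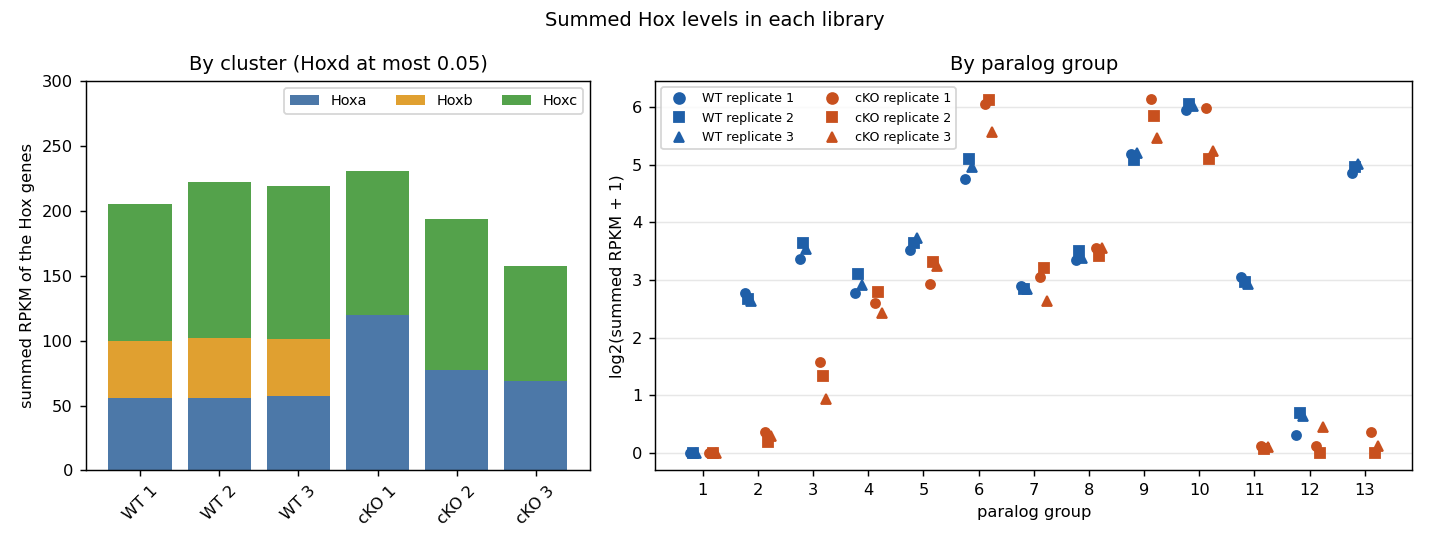
Left, summed RPKM of the Hoxa, Hoxb and Hoxc genes in each library as stacked bars from 0, and right, summed level per paralog group as log2(summed RPKM + 1) with 1 point per library. The Hoxb segment, 43.4 to 45.9 RPKM, is missing from the cKO bars, and groups 2, 3, 11 and 13 stand far lower in cKO libraries while groups 6 and 9 stand higher.

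By paralog group, the summed level was lower without overlap in groups 2, 3, 5, 11 and 13 of the cKO libraries and higher without overlap in groups 6 and 9. Group 2 summed to 5.83, 5.34 and 5.23 RPKM in WT and to 0.28, 0.14 and 0.22 RPKM in cKO libraries, and group 3 to 9.32, 11.54 and 10.6 RPKM and to 1.99, 1.52 and 0.92 RPKM. In both, Hoxb supplied most of the WT level. Group 6 summed to 26.2 to 33.6 RPKM in WT and 46.8 to 69.2 RPKM in cKO libraries, 2.01-fold higher, and group 9 to 32.8 to 35.9 RPKM and 43.4 to 70.0 RPKM, 1.63-fold higher. Neither group overlapped. Group 5 was 1.42-fold lower without overlap, at 10.5 to 12.3 RPKM in WT and 6.66 to 8.95 RPKM in cKO libraries.

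In groups 7 and 8 the ranges of the summed level overlapped although their Hoxb member was at 0 in the cKO libraries. Group 7 summed to 6.14 to 6.48 RPKM in WT and 5.25 to 8.23 RPKM in cKO libraries, where Hoxb7 was at 0 and Hoxa7 supplied the whole level. Group 8 summed to 9.15 to 10.3 RPKM in WT and 9.69 to 10.8 RPKM in cKO libraries, with Hoxc8 as the main contributor in both groups of libraries. Group 4 summed to 5.86 to 7.58 RPKM in WT and 4.37 to 5.97 RPKM in cKO libraries, and group 10 to 60.7 to 65.6 RPKM and 33.3 to 62.9 RPKM, both with overlap. Group 11 summed to 6.67 to 7.31 RPKM in WT and at most 0.08 RPKM in cKO libraries, and group 13 to 28.1 to 31.3 RPKM and at most 0.29 RPKM. Group 12 overlapped, and the listed genes of group 1 were at 0.

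The order of the highest genes differed between groups. In WT libraries it ran Hoxc10, Hoxc13, Hoxa10, Hoxa9 and Hoxc6, and only Hoxa9 and Hoxc6 overlapped among these neighbours. Hoxc10 made up 17.4 to 18.2% of the summed Hox level in WT and 7.44 to 9.61% in cKO libraries. In cKO libraries the order was Hoxc6, Hoxa9, Hoxa10 and Hoxc10, with overlap between Hoxc6 and Hoxa9 and between Hoxa9 and Hoxa10. Hoxc6 made up 27.8 to 34.8% and Hoxa9 23.2 to 26.4% of the summed level there, against 7.98 to 10.4% and 8.73 to 10.6% in WT libraries. These are levels per kilobase of transcript and so can be set side by side between genes.

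Other annotated genes inside the clusters were mostly silent. Of 43 such genes 34 were at 0 in every library, among them the miRNA genes, whose mature products a polyadenylated library does not capture. Hotair, the long noncoding RNA of the posterior Hoxc cluster, was at 0.77, 0.85 and 0.39 RPKM in WT libraries and at 0 in each cKO library. Hoxb3os, antisense to Hoxb3, was at 0.43, 0.63 and 0.31 RPKM in WT libraries and likewise at 0 in each cKO library. Both were under the minimum for testing. The antisense RNA Hoxa11os was at 0.78, 1.53 and 0.37 RPKM in WT and 0.11, 0.53 and 0 RPKM in cKO libraries, with overlap. Libraries were stranded, but the strand setting of the counting is not given in the sources used here, so reads of a gene and its antisense partner may not be separated. Gm15050, a predicted gene within Hoxa, was the only one tested and was lower, at 2.9, 1.3 and 1.71 RPKM in WT and 0, 0.2 and 0.89 RPKM in cKO libraries (limma adjusted p = 0.0167). Because it met the minimum through the WT libraries alone, its direction was partly set by that minimum.

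Genes beside the Hoxb cluster did not share its direction. For each cluster the 5 nearest protein-coding genes on each side that met the minimum for testing were taken. Around Hoxb 8 of 10 were higher and 2 lower in cKO libraries, with a median log2 difference of 0.86. Among all genes tested 34.7% were higher and 26.5% lower. The nearest on the posterior side, Atp5g1, a subunit gene of the mitochondrial ATP synthase 118.6 kb away, was at 267.96, 265.75 and 283.49 RPKM in WT and 385.02, 356.69 and 346.37 RPKM in cKO libraries (0.41, limma adjusted p = 0.00188). The nearest on the anterior side, Snx11, a sorting nexin gene 399.3 kb away, was at 14.99, 13.88 and 16.32 RPKM in WT and 30.2, 27.13 and 27.95 RPKM in cKO libraries (0.87, limma adjusted p = 0.000318). Both were higher without overlap, while Igf2bp1 and Copz2 were the 2 lower. The 1005 genes tested on chromosome 11 had a median difference of 0.42, and with each chromosome centred Atp5g1 no longer passed (−0.01, limma adjusted p = 0.94).

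Flanking genes of the other clusters also went their own way. Around Hoxa 5 of 10 were lower and none higher (median −0.45), including the nearest on both sides, the adaptor gene Skap2 (25.7, 25.57 and 24.34 RPKM in WT, 10.05, 14.7 and 10.16 RPKM in cKO libraries, limma adjusted p = 0.00106) and Hibadh, a valine catabolism gene (−0.63, limma adjusted p = 0.000459). Chromosome 6 had a median of −0.25. Around Hoxc 5 were higher and 1 lower (median 0.36). There the DNA repair gene Smug1 was higher on the anterior side (0.73, limma adjusted p = 0.00361) and Calcoco1 did not pass on the posterior side (0.70, limma adjusted p = 0.0561). Around Hoxd 1 was higher and 6 lower (median −0.69), where Mtx2 did not pass on the anterior side (−0.02, limma adjusted p = 0.903) and Lnpk was lower on the posterior side (−0.84, limma adjusted p = 0.00592). Chromosomes 15 and 2 had medians of −0.14 and −0.11. Over all 40 flanking genes 14 were higher, 14 lower and 12 neither, beside 34.7% and 26.5% of all genes tested. Scrn1 beside Hoxa and Igf2bp1 beside Hoxb, both counted as lower, met the minimum through the WT libraries alone.

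**Figure D4:**
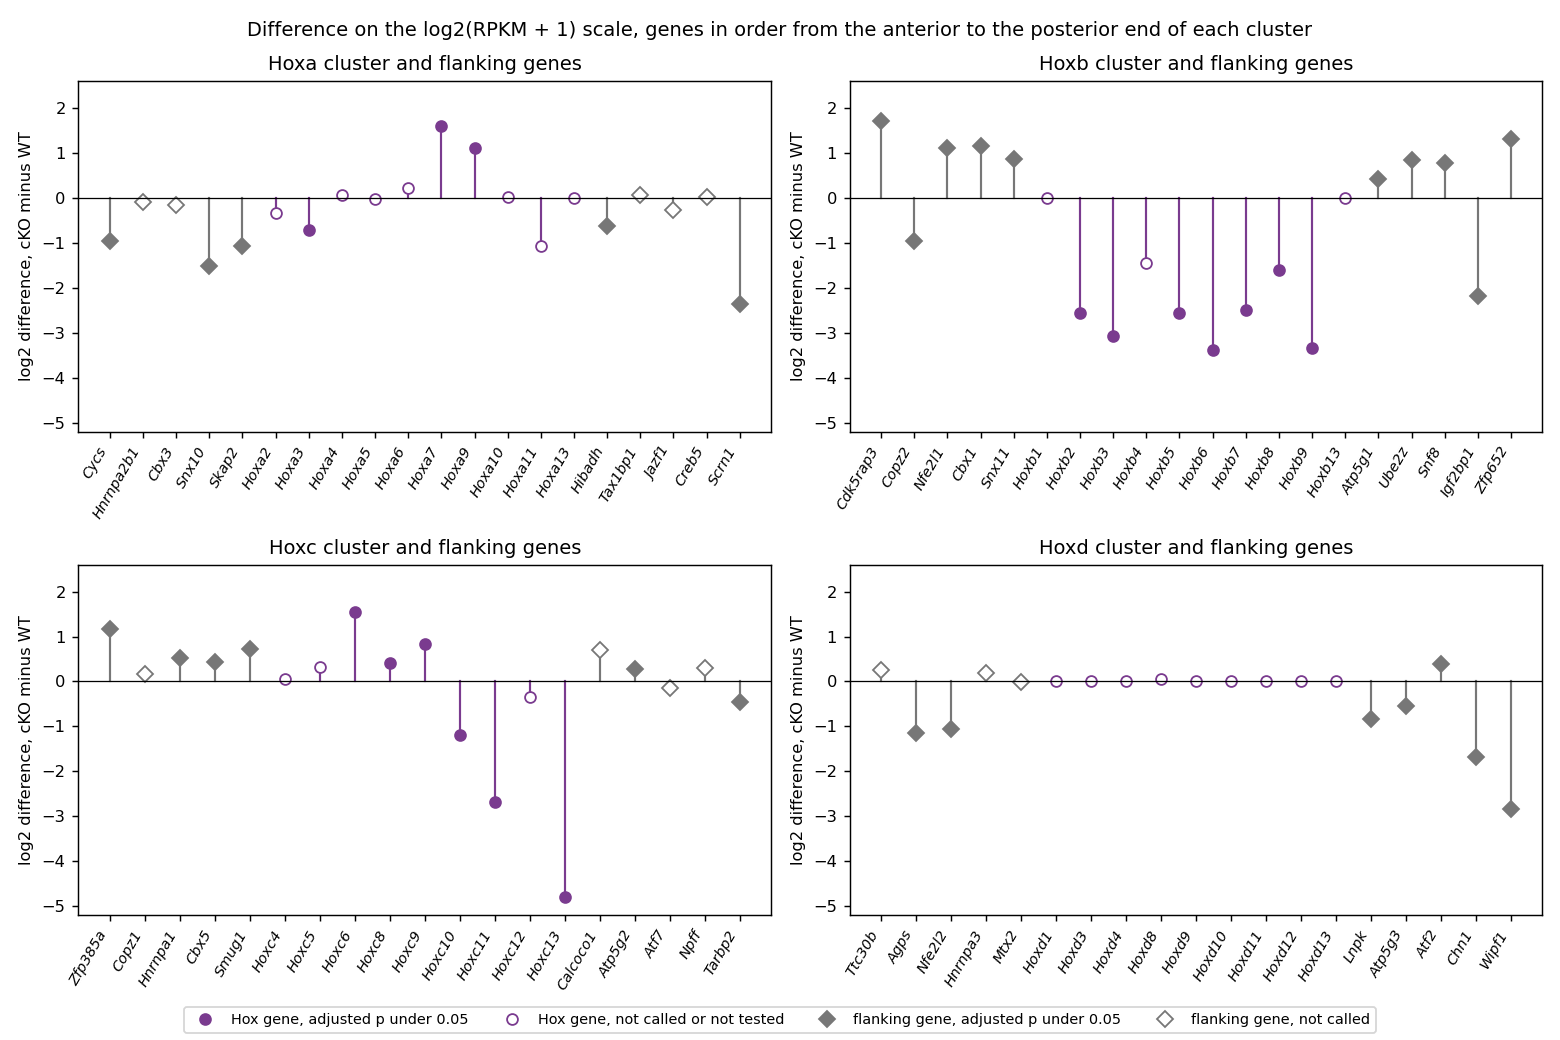
Log2 difference (cKO minus WT, on the log2(RPKM + 1) scale) of each Hox gene, in purple circles, and of 5 flanking genes on each side, in grey diamonds, in order from the anterior to the posterior end and not to distance. Filled symbols passed the limma test, and the Hoxb block lies between −1.46 and −3.39 while 8 of its 10 neighbours lie above 0.

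Hox proteins bind DNA together with TALE homeodomain partners, the Pbx, Meis and Pknox (Prep) proteins. Of 8 genes of this family 7 were tested, 1 was higher, 5 lower and 1 neither, with a median log2 difference of −0.55, where 34.7% of all genes tested were higher and 26.5% lower. Pknox2 was at 3.78, 5.7 and 3.8 RPKM in WT and 56.23, 43.23 and 34.32 RPKM in cKO libraries, 10.1-fold higher (3.06 ± 0.22, limma adjusted p = 6.47e-05). Every cKO library stood far above the WT values. With a minimum mean of 0.1 RPKM or none, or without cKO replicate 2, 2 genes of the family were higher. Pknox1, its paralog, was at 6.18, 6.97 and 6.4 RPKM in WT and 3.15, 3.84 and 4.45 RPKM in cKO libraries, 1.71-fold lower without overlap (−0.65 ± 0.13, limma adjusted p = 0.00564).

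The Meis genes, whose products pair with Pbx proteins, were lower. Meis2 was at 9.77, 9.28 and 10.57 RPKM in WT and 0.91, 4.32 and 1.37 RPKM in cKO libraries, 4.49-fold lower, and 8.66-fold lower without cKO replicate 2 (−1.91 ± 0.37, limma adjusted p = 0.0041). Meis3 was at 11.45, 10.39 and 11.62 RPKM in WT and 3.37, 1.84 and 3.15 RPKM in cKO libraries, 4.002-fold lower (−1.71 ± 0.18, limma adjusted p = 0.000332). In neither gene did the groups overlap. Meis1 and Pbx2 were lower by less than 1 on the log2 scale. The number of lower genes was 3 in place of 5 without WT replicate 1 or WT replicate 3, when Meis1 (limma adjusted p = 0.0747 and 0.0546) and Pbx2 (0.127 and 0.136) missed the threshold. Pbx2 also missed it without WT replicate 2 (0.0917), cKO replicate 1 (0.0948) or cKO replicate 2 (0.0574), with the replicate number as a block (0.133), with a variance prior without trend (0.0508) and with a minimum mean of 0.1 RPKM (0.0504).

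**Figure D5:**
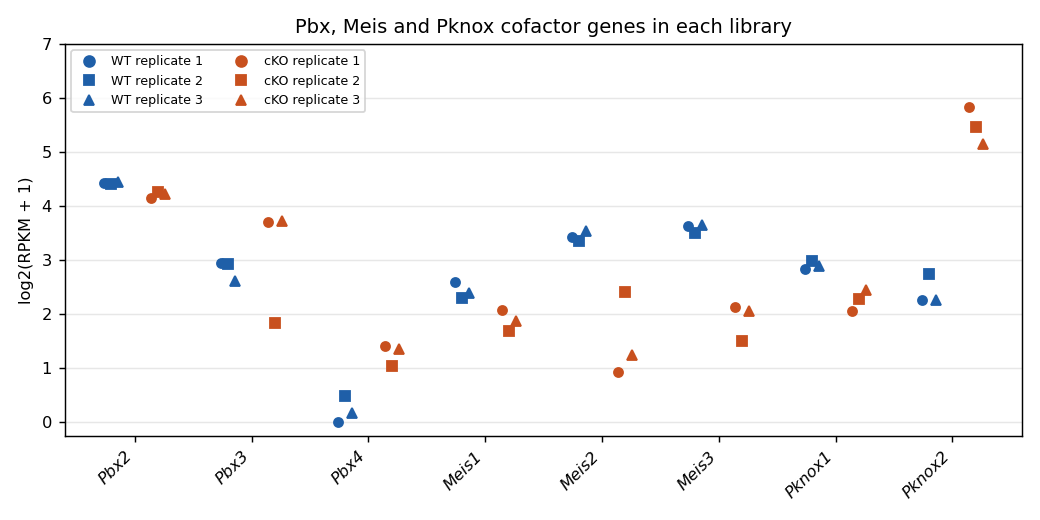
Level of 8 Pbx, Meis and Pknox genes as log2(RPKM + 1), with 1 point per library, WT in blue and cKO in orange. Pknox2 stands highest in the cKO libraries, Meis2 and Meis3 stand lower there, and Pbx3 has cKO values on both sides of the WT values.

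Regulators known to act on Hox genes were also read from a list of 20, covering Cdx factors, retinoic acid signalling and chromatin proteins. Of 14 tested 9 were higher and 2 lower (median 0.50), beside 34.7% and 26.5% of all genes tested. The number higher was 7 under TMM, median-of-ratios or quantile scaling, with the replicate number as a block, and without any 1 WT library. In each of these settings Men1 and Ctcf missed the threshold. With each chromosome centred, Kmt2b (limma adjusted p = 0.688) and Kdm6b (0.29) missed it. The number higher was 10 with library weights or without cKO replicate 3. Retinoic acid receptors activate anterior Hox genes, and Rara was at 8.38, 8.73 and 9.63 RPKM in WT and 55.73, 43.87 and 28.05 RPKM in cKO libraries, 4.77-fold higher (2.08 ± 0.24, limma adjusted p = 0.000424). Psip1, a chromatin reader that recruits MLL complexes, was at 27.83, 36.25 and 27.02 RPKM in WT and 114.44, 102.56 and 96.7 RPKM in cKO libraries, 3.44-fold higher (1.76 ± 0.13, limma adjusted p = 7.73e-05). The groups did not overlap in either gene. The retinoid X receptor gene Rxrb was 1.92-fold higher (0.89, limma adjusted p = 0.00253). Rxra did not pass (0.04, limma adjusted p = 0.868). Cyp26a1 was not tested and overlapped, at 0, 0 and 0.04 RPKM in WT and 0.6, 2.32 and 0.03 RPKM in cKO libraries. The remaining listed genes of retinoic acid signalling, Rarg, Rarb, Aldh1a2 and Cyp26b1, stood lower. Rarg was at 41.1, 41.22 and 43.02 RPKM in WT and 30.01, 30.45 and 34.38 RPKM in cKO libraries (−0.39, limma adjusted p = 0.00549). The receptor gene Rarb (0.34 to 0.57 RPKM in WT, 0 to 0.03 RPKM in cKO libraries) and Aldh1a2, which makes retinoic acid (0.8 to 1.73 RPKM and 0 to 0.04 RPKM), were not tested and did not overlap. Cyp26b1, which degrades retinoic acid, was 2.69-fold lower and 4.51-fold lower without cKO replicate 3 (−1.03, limma adjusted p = 0.019), at 3.49, 2.93 and 4.27 RPKM in WT and 0.91, 0.67 and 2.4 RPKM in cKO libraries. It did not pass on leaving out WT replicate 1 (limma adjusted p = 0.0575), WT replicate 3 (0.0689) or cKO replicate 1 (0.0607), which left 1 lower gene, and with each chromosome centred (0.0556). With a minimum mean of 0.1 RPKM 4 of these regulators were lower. Cdx2 and Cdx4 were at 0 in every library and Cdx1 reached at most 0.04 RPKM.

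Of 20 limb patterning genes outside the clusters 11 were tested, 3 higher, 3 lower and 5 neither (median −0.24). These shares are close to or under the 34.7% higher and 26.5% lower among all genes tested. Msx2, a homeobox gene of limb and skull mesenchyme, was at 23.08, 19.07 and 22.52 RPKM in WT and 1.17, 1.4 and 1.3 RPKM in cKO libraries, 16.7-fold lower (−3.30 ± 0.12, limma adjusted p = 4.34e-06). Shox2, a gene of the upper limb segment, was 4.16-fold lower (−2.03, limma adjusted p = 0.00187), and Twist2 was 3.67-fold lower (−1.70, limma adjusted p = 0.00191). Pitx1, which marks the hindlimb, was at 6.96, 6.42 and 6.91 RPKM in WT and 21.44, 32.73 and 16.01 RPKM in cKO libraries, 3.46-fold higher (1.59 ± 0.24, limma adjusted p = 0.0014). No cKO library overlapped the WT range in these 4 genes. Tbx5, which marks the forelimb, was at 0 in every library, and the other hindlimb gene Tbx4 reached at most 0.03 RPKM. Prrx1, whose promoter drives the Cre, was at 75.02, 83.75 and 68.16 RPKM in WT and 72.24, 39.46 and 45.51 RPKM in cKO libraries and did not pass (−0.56, limma adjusted p = 0.0628). The number of lower genes was 5 in place of 3 without cKO replicate 3, as also under TMM or median-of-ratios scaling and with a minimum mean of 0.1 RPKM or none.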

How the data were processed

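RNA was measured in 6 libraries, stranded and polyadenylated, read as pairs of 151 bp per the labels' protocols. Named in the submitters' processing notes are STAR 2.7.1a, RSEM 1.3.1 and cutadapt 2.8 with the build GRCm38, in no stated order. The annotation version is not given in the sources used here. The authors deposited RPKM values with 2 decimals for 55471 Ensembl identifiers, that is per kilobase of transcript and scaled to library size. GENCODE M21 gave symbols and coordinates for 55230 of them, and RefSeq gave promoter sequences. Every column was mapped to a sample by its title.

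The 2-sided moderated test of limma 3.58.1 (R 4.3.3) was run on log2(RPKM + 1), with a variance prior that follows the mean and genotype as the only term. The 12223 genes whose mean was 1 RPKM or more entered 1 fit, with Benjamini-Hochberg adjustment over all of them and a threshold of 0.05. Differences are on the log2(RPKM + 1) scale, which understates the change of low genes. Folds are ratios of mean RPKM. For single Hox genes they were left out where a library did not exceed its floor. For genes of the other lists they were left out where a library did not exceed a fixed low RPKM, the same for every gene. An exact permutation test of 3 against 3 libraries cannot go below 0.1, so calls rest on the pooled spread.

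Depth was inferred from the spacing of low values in genes of 800 to 3500 bp, less 150 bp. Between 80.4 and 91.2% of those values came within 0.2 of whole fragments (40% by chance). A floor of 3 fragments was worth 0.135 to 0.230 RPKM at 1 kb and covers counting error only.

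The Hox genes, the lists and their tests were chosen with earlier results of these data known. RPKM are given in every library for each Hox gene with a mean of at least 1 RPKM in a group and for Hoxa4, Hoxa11, Hoxc12 and Hoxd8, and other Hox genes are given by their range. Of the other lists, up to 4 members that passed with the largest absolute log2 difference are named, with the nearest gene on each side of a cluster. Some members of the fixed lists are not reported here. Any other gene named was added after its values were seen. Alternatives were pseudocounts of 0.1 and 0.5, minimum means of 0.1 and 5 RPKM or none, TMM, median-of-ratios and quantile scaling, other variance priors, library weights, the replicate number as a block, chromosome centring, leaving out each library, and a log2 difference of 1 or more. The procedure was tested on simulated data. Tables and plots were made in Python 3.11.15 with pandas 2.3.3, numpy 2.4.6 and matplotlib 3.10.9.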

Additional observations from a re-analysis of the deposited data

How the results depend on the processing

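The counts of Hox genes that passed stayed within 1.5 times of the 5 higher and 11 lower reported under the alternatives tried, with these exceptions. With an absolute log2 difference of at least 1 there were 3 higher Hox genes, and 1632 higher and 1499 lower genes overall. With a minimum mean of 5 RPKM there were 2 lower Hox genes, since that minimum removes Hoxa3, Hoxc11 and the Hoxb genes by construction and leaves Hoxc10 and Hoxc13. Leaving out each library in turn gave 5 to 6 higher and 9 to 13 lower Hox genes. No Hox gene that passed reversed. Hoxa5, Hoxa10 and Hoxc4, which did not pass, changed sign under some settings, and the cause was not tested. Hoxa5 was 0.25 with each chromosome centred and −0.11 to 0.03 without 1 library, including 0.0271 without cKO replicate 1 and 0.009 without cKO replicate 3. Hoxa10 was −0.0878 under TMM, −0.0765 under median-of-ratios and −0.069 under quantile scaling, and −0.37 to 0.31 without 1 library. Hoxc4 was −0.0536 under TMM and −0.044 under median-of-ratios scaling, and −0.0861 (without WT replicate 1) to 0.15 without 1 library, including −0.0162 without cKO replicate 2. The median log2 difference of all genes moved from 0.09 to −0.02 under TMM scaling and to −0.01 under median-of-ratios scaling. Same-numbered libraries did not deviate together (r = −0.017, 0.05 and −0.019). A low correlation over genes cannot exclude a pairing, which the labels do not state. With the replicate number as a block, 5 Hox genes were higher and 11 lower, and 3811 and 2938 genes overall.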
